A study of Homo sapiens with 24 samples.

Results

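The genes that load and start the replicative helicase were followed across 8 groups of SKBR3 libraries. They are CDC6 and CDT1, which load the helicase, MCM2, MCM3, MCM4, MCM5, MCM6 and MCM7, its subunits, and MCM10 and GINS2, which act when it is switched on. All 10 were found by their symbols among the 14493 genes of the deposited read-count table. SKBR3 is an established human HER2-positive breast cancer cell line. The study used it to compare therapy-induced senescence (TIS), a growth arrest caused by treatment that need not be permanent, across drugs. ND-646, an inhibitor of acetyl-CoA carboxylase, and TVB-3166, an inhibitor of fatty acid synthase, were each given at 250 nmol/L. The other drug groups were alisertib, an Aurora A kinase inhibitor, at 500 nmol/L, doxorubicin, a topoisomerase poison, at 10 nmol/L, bleomycin, which breaks DNA, at 10 μmol/L, and palbociclib, an inhibitor of the cyclin D-dependent kinases, at 1 μmol/L. Drugs were renewed on day 3 and the cells were collected on day 7, and untreated proliferative cells were collected at day 0 and at day 7. The labels give a refeed on day 3 for every drug group and none for the untreated day-7 cells. Each group had 3 libraries, and the labels do not say whether these came from separate cultures. The methods speak of repeated independent experiments for cell-based observations in general without naming these libraries, so p-values measure the spread between these libraries, which may be technical. In bulk RNA a smaller share of cycling cells and less RNA per cycling cell cannot be told apart.

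Replication licensing is the step that prepares origins for a single round of DNA synthesis. In late mitosis and G1 the origin recognition complex binds origins and, with CDC6 and CDT1, places the ring of MCM2 to MCM7 around the DNA in an inactive form. At the start of S phase, kinases, MCM10, CDC45 and the GINS complex, of which GINS2 is a subunit, turn the ring into the moving helicase. Transcription of most of these genes is known to depend on E2F factors, which are held back by the retinoblastoma protein in arrested cells, and proliferating tumours express them at high levels.

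Because E2F factors bind near the starts of such genes, the 150 bases around the start (100 before and 50 after) are shown for the 8 members printed here. The sequences are from RefSeq, each matched the GRCh37 genome at 1 place, and the coordinates are of GRCh37. All are written 5′ to 3′ along the strand of the gene. Capitals mark matches, on either strand, to the E2F-type words TTTCCCGN, TTTCGCGN, TTTGCCGN and TTTGGCGN, where N is any base and neighbouring or overlapping matches run together.
CDC6, chr17:38444031-38444180, plus strand: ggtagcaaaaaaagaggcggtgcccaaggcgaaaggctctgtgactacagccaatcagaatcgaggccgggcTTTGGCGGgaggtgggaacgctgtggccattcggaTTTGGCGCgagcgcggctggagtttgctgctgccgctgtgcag
CDT1, chr16:88870097-88870246, plus strand: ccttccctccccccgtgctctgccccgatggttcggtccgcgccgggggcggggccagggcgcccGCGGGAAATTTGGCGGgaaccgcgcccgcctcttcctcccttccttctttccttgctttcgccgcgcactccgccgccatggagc
MCM2, chr3:127317154-127317303, plus strand: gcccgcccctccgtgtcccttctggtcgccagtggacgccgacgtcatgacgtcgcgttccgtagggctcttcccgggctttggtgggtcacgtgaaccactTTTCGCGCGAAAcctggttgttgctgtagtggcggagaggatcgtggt
MCM3, chr6:52149491-52149640, minus strand: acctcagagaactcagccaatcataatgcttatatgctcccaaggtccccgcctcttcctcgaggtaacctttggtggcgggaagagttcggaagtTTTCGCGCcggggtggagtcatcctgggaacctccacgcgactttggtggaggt
MCM6, chr2:136633964-136634113, minus strand: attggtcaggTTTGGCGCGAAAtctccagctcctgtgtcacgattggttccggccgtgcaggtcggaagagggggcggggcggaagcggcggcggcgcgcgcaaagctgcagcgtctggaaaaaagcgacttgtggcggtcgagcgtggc
MCM7, chr7:99698971-99699120, minus strand: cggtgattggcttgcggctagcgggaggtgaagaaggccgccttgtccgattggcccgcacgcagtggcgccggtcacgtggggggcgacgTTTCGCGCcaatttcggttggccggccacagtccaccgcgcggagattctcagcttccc
MCM10, chr10:13203458-13203607, plus strand: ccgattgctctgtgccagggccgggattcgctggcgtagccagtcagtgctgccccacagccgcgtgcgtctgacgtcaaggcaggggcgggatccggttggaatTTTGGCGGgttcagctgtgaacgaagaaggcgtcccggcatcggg
GINS2, chr16:85722511-85722660, minus strand: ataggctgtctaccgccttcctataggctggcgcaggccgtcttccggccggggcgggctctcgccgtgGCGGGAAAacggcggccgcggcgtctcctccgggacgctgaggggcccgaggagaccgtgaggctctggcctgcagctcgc

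Shares were counted in the longer windows of the RefSeq table, which reach from 250.0 bases before to 50 after each listed start, with a gene counted if any of its starts matched. With the stricter words TTTCCCGC, TTTCGCGC, TTTGCCGC and TTTGGCGC, searched on both strands, 7 of these 8 genes held a match, against 3.31% of 35116 promoter windows of that length. The exception was MCM10, whose match ends in another base. With any last base all 8 genes matched, against 8.64% of the promoters, and this looser form was set after the windows had been read. The CCAAT box, searched as CCAAT on both strands, was present in 6 of the 8 genes, all but CDT1 and MCM2, against 34.6% of promoters. RefSeq lists 3 starts for MCM7, and the one furthest upstream is printed. A match is a string of letters, and binding was not measured.

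The libraries held 29405121 to 44316330 counts, and the lowest count of any member in any library was 107, for GINS2 in ND-646 cells. Levels are read counts divided by TMM-scaled library size (CPM). The luminal markers ERBB2, GRB7, KRT8, KRT18, KRT19 and EPCAM were all detected, each at a group mean of at least 248 CPM. Of 5 markers of leukocytes, fibroblasts and endothelium, PTPRC, COL3A1 and PECAM1 are not listed in the table. COL1A1 stayed between 6.43 and 15.3 CPM, and CD68 between 3.70 and 56.4 CPM. Single libraries stood apart for the members. Bleomycin replicate 2 was the lowest of its group for 10 of 10 members, with a median of −2.21 on the log2 scale from the day-0 mean, against −1.37 and −1.65 in replicates 1 and 3. Untreated day-7 replicate 2 was also the lowest of its group for 10 of 10 members, at −0.44 against −0.19 and −0.17, palbociclib replicate 2 for 9 and ND-646 replicate 1 for 8. The share of all genes that were lowest in these libraries was not counted, so these numbers are a description without a background. What these libraries have in common was not tested.

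All 10 licensing genes fell in ND-646, TVB-3166, bleomycin, palbociclib and doxorubicin cells relative to untreated day-0 cells, and 9 fell in alisertib cells. In ND-646 cells the log2 fold change ran from −1.67 (MCM3) to −3.22 (MCM10), with a median of −2.34, while 18.8% of all genes tested were called lower. In TVB-3166 cells it ran from −1.10 (MCM4) to −2.35 (GINS2), median −1.92, against 27.7% of genes called lower. In bleomycin cells the range was −1.36 (MCM4) to −2.52 (GINS2), median −1.66, against 25.3% of genes, and the median was −1.45 with 10 of 10 still called without bleomycin replicate 2. Palbociclib cells, whose median was close to that of bleomycin cells, had a median of −1.48, from −0.63 (MCM3) to −2.56 (GINS2), against 27.2% of genes called lower. Doxorubicin cells had a median of −0.79, from −0.52 (MCM3) to −1.58 (GINS2), against 24.8% of genes. Alisertib cells had a median of −0.42, from −0.02 (MCM3) to −1.01 (GINS2), against 19.6% of genes. The median over all genes tested lay between −0.01 and 0.02 in these comparisons. At least a 2-fold fall was reached by 10 members in ND-646, TVB-3166 and bleomycin cells, by 9 in palbociclib cells, all but MCM3, and by 1, GINS2, in doxorubicin and in alisertib cells. The shares above are for calls without a fold threshold. With at least a 2-fold fall also required, 1218 of 13604 genes were called lower in ND-646 cells. For the other drugs that background is not given here. A gene was called where edgeR's quasi-likelihood test gave a Benjamini-Hochberg adjusted p-value below 0.05. The largest adjusted p-value of any member was 0.00033 in ND-646 cells and 0.00291 in doxorubicin cells.

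**Figure D1:**
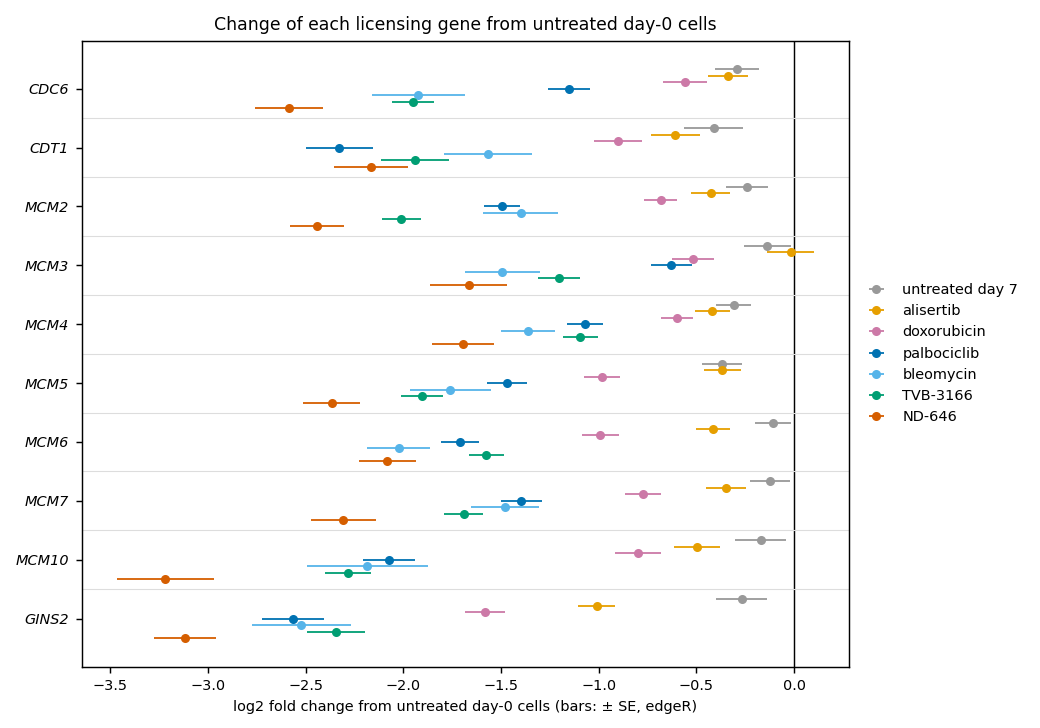
Log2 fold change (x axis) of the 10 members (y axis) from untreated day-0 cells, with a point for each of the other 7 groups. Bars are ± SE, derived from edgeR's log2 fold change and F statistic. ND-646 points reach −3.22 for MCM10, palbociclib points range from −0.63 for MCM3 to −2.56 for GINS2, and the alisertib point of MCM3 sits at −0.02.

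The alisertib calls were the least firm of these. Scaled to library totals without TMM, which moved the median of all genes by 0.13, 2 members (CDT1 and GINS2) were still called lower, against 10.2% of genes. The call of CDC6 was lost without any one of the 3 alisertib libraries or without day-0 replicate 2 or 3, that of MCM7 without alisertib replicate 1 or 2 or day-0 replicate 2, and that of MCM5 without alisertib replicate 2 or day-0 replicate 2.

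Untreated cells at day 7 were compared with those at day 0 to see how the members changed in untreated culture. Their labels give no refeed, so time in culture and the state of the medium cannot be told apart. The members were at log2 fold changes of −0.11 (MCM6) to −0.41 (CDT1) with a median of −0.25, and 0 of 10 passed edgeR's adjusted threshold, which 0.198% of genes did in that direction. At an unadjusted p-value under 0.05 there were 5 of 10 lower (MCM2, MCM4, MCM5, CDC6 and CDT1), against 11.7% of genes, and DESeq2 called 2, MCM4 and MCM5, against 4.20% of genes.

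Day-7 cells, as the second reference, share the day of collection with the drug groups but not the refeed label. Against them all 10 members fell in ND-646 (17.1% of genes called lower), TVB-3166 (26.1%), bleomycin (23.2%) and palbociclib cells (22.9%), with medians of −2.08, −1.54, −1.35 and −1.24. In doxorubicin cells 9 fell, against 21.5% of genes, with a median of −0.53. The exception was CDC6, at −0.24 ± 0.10 (SE) with an adjusted p-value of 0.061 from edgeR, and with the replicate number as a block its adjusted p-value was 0.0395. The doxorubicin calls of MCM3, MCM4 and CDT1 each depended on single libraries: all 3 were lost without doxorubicin replicate 1, MCM3 and MCM4 without day-7 replicate 3, MCM4 without doxorubicin replicate 2, and CDT1 without day-7 replicate 1. In alisertib cells 2 members fell, GINS2 at −0.72 ± 0.12 and MCM6 at −0.28 ± 0.09, against 9.49% of genes called lower. With the replicate block MCM7 and MCM10 joined them for 4 of 10, against 14.7% of genes. The MCM6 call was lost on leaving out alisertib replicate 1, 2 or 3 or day-7 replicate 1 or 3, and GINS2 kept its call in each of these fits.

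**Figure D2:**
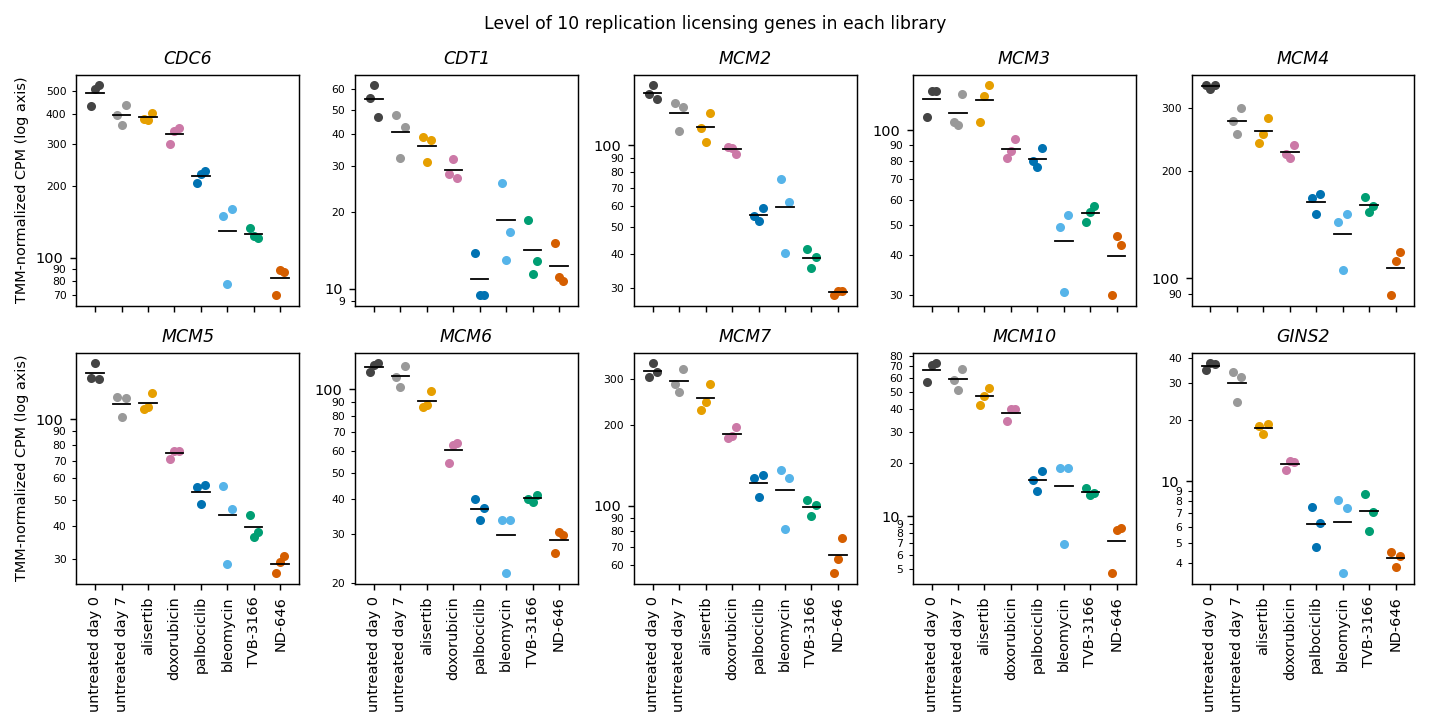
TMM-normalized CPM (y axis, log scale) of each member in the 24 libraries, grouped on the x axis, with a point per library in replicate order and a black line at the group mean. Day-0 means are the highest for all 10 members, and ND-646 means are the lowest for 9, with palbociclib lowest for CDT1.

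The order of the group means was much alike across members. Untreated day-0 cells came first for 10 of 10 members and doxorubicin cells ranked 4 for 10 of 10. The next group below doxorubicin differed from it for 8 members, all but MCM3 and CDT1. ND-646 cells, last for 9, did not differ from the group above them for any of these 9.

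CDC6, the ATPase that joins the origin recognition complex and calls in the helicase, had the highest level per length of the 10 members, at 92.1 CPM per kb of exons in day-0 cells. By the longest transcript it was close to MCM7 there, at 107 and 104 CPM per kb. By that length MCM7 was above CDC6 in day-7 (94.9 and 87.0), ND-646, TVB-3166 and bleomycin cells. CDC6 was at 430.1, 509 and 529 CPM in day-0 replicates 1 to 3, at 395, 361 and 435 CPM in day-7 cells, and at 381, 378 and 405 CPM in alisertib cells. Doxorubicin cells had 299.8, 339.5 and 350.2 CPM and palbociclib cells 205, 224 and 230.4 CPM. All libraries of both groups lay below the untreated ones. Bleomycin cells had 149, 77.7 and 159.5 CPM, TVB-3166 cells 133, 123 and 121 CPM, and ND-646 cells 69.7, 88.4 and 87.3 CPM. Every ND-646 library was below every TVB-3166 library, while bleomycin replicate 2 lay within the ND-646 range. The remaining level was 16.7% of day 0 with ND-646 (log2 fold change −2.58 ± 0.17, adjusted p-value 2.21e-05), 25.9% with TVB-3166, 44.9% with palbociclib (−1.15 ± 0.11, adjusted p-value 1.53e-05) and 79.0% with alisertib (adjusted p-value 0.0238). Among neighbours in the order of means, doxorubicin and palbociclib cells differed (adjusted p-value 0.000998), as did palbociclib and bleomycin cells (0.0267), whereas bleomycin and TVB-3166 cells did not (0.937).

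CDT1 is the partner of CDC6 in loading and is degraded once S phase begins, so its message and protein need not run together. Its levels were 55.5, 62.3 and 46.7 CPM in day-0 cells, 47.8, 32.3 and 42.6 CPM in day-7 cells, 39.0, 31.3 and 38.0 CPM with alisertib, and 28.0, 32.2 and 27.1 CPM with doxorubicin. The untreated day-7 group overlapped the alisertib group, and its replicate 2 lay just above the highest doxorubicin library. With bleomycin there were 25.8, 13.0 and 16.7 CPM, with TVB-3166 18.5, 11.4 and 12.8 CPM, with ND-646 15.0, 11.1 and 10.8 CPM, and with palbociclib 13.7, 9.46 and 9.49 CPM. These 4 groups overlapped one another. CDT1 was the only member whose lowest group mean was that of palbociclib cells, at 19.9% of day 0 (−2.33 ± 0.17, adjusted p-value 3.89e-06), followed by ND-646 cells at 22.3% (−2.17 ± 0.19), and these neighbours in the order did not differ (adjusted p-value 0.604). No neighbouring pair in the order of CDT1 passed, and the nearest was alisertib and doxorubicin (0.0565).

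The balance of both loaders stood apart in palbociclib cells, a description that was not tested. The log2 difference of CDC6 over CDT1 within a library, on CPM not corrected for length, was 2.95, 3.03 and 3.50 in day-0 cells and 3.89, 4.55 and 4.59 in palbociclib cells. It was 2.21, 2.99 and 3.01 with ND-646 and 2.84, 3.43 and 3.24 with TVB-3166. The palbociclib libraries lay above all other libraries, of which doxorubicin replicate 3 was the highest at 3.69, and the other groups overlapped day 0.

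MCM2, the subunit that also binds histones, was at 154, 167 and 149 CPM in day-0 cells and 143, 113 and 139 CPM in day-7 cells. Drug-treated cells had 116, 103 and 131 CPM with alisertib, 98.8, 97.7 and 93.3 with doxorubicin, 75.5, 40.3 and 61.7 with bleomycin, and 54.8, 52.7 and 59.0 with palbociclib. TVB-3166 cells had 41.7, 35.4 and 38.8 CPM and ND-646 cells 28.2, 29.2 and 29.2 CPM, which was the tightest group of all for this gene. The lipogenesis inhibitor groups did not overlap each other or palbociclib. MCM2 fell to 18.4% of day 0 with ND-646 (−2.44 ± 0.14) and to 24.8% with TVB-3166 (−2.01 ± 0.10), each beyond the spread between libraries (adjusted p-values 1.52e-05 and 3.17e-07).

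MCM3 and MCM4 had the smallest falls of the subunits in ND-646, TVB-3166, palbociclib and doxorubicin cells. MCM3 was at 110.1, 134 and 134 CPM in day-0 cells, 107, 104 and 131 CPM in day-7 cells, and 106, 128 and 139 CPM with alisertib. These 3 groups overlapped throughout, and the alisertib difference from day 0 was −0.02 ± 0.12 (adjusted p-value 0.921), with a 95% interval of −0.35 to 0.31. Doxorubicin cells had 81.5, 86.1 and 93.9 CPM, palbociclib cells 79.9, 76.4 and 87.6 CPM, TVB-3166 cells 50.9, 55.1 and 57.3 CPM, bleomycin cells 49.4, 30.6 and 53.7 CPM, and ND-646 cells 29.9, 46.0 and 43.3 CPM. Palbociclib left 64.6% of the day-0 level of MCM3 (−0.63 ± 0.10, adjusted p-value 0.000584), which did not differ from doxorubicin (adjusted p-value 0.400) and was above TVB-3166 (0.000247). MCM4 was at 347, 338 and 347 CPM at day 0 and at 275, 253 and 299 CPM at day 7, and with drugs it ranged from 239 to 282 CPM (alisertib), 218 to 236 (doxorubicin), 151 to 172 (palbociclib), 153 to 169 (TVB-3166), 105 to 151 (bleomycin) and 89.7 to 119 (ND-646). Its day-0 and day-7 libraries did not overlap, at −0.31 ± 0.09 with an adjusted p-value of 0.0993. MCM4 fell to 30.9% of day 0 with ND-646 and 46.8% with TVB-3166, and the TVB-3166 and palbociclib libraries overlapped.

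MCM5 and MCM7 followed the mean of the members most closely among the subunits, with the highest correlation of any pair of members over the 24 libraries (Pearson's r 0.988, a description, since the libraries share their groups). MCM5 was at 142, 162 and 141 CPM at day 0 and at 121, 101 and 120.3 CPM at day 7, without overlap. Alisertib cells had 109, 111 and 126 CPM, doxorubicin cells 71.0, 76.1 and 76.2 CPM, palbociclib cells 55.7, 48.3 and 56.7 CPM, bleomycin cells 56.4, 28.7 and 46.0 CPM, TVB-3166 cells 44.0, 36.4 and 37.9 CPM, and ND-646 cells 26.6, 29.2 and 30.8 CPM. MCM5 fell to 19.4% of day 0 with ND-646 (−2.37 ± 0.15) and to 50.5% with doxorubicin (−0.98 ± 0.09). MCM7 was at 303, 343 and 317 CPM at day 0, 286, 268 and 325 CPM at day 7, 229 to 285 CPM with alisertib, 179 to 198 with doxorubicin, 108 to 130.3 with palbociclib, 81.7 to 136 with bleomycin, 91.4 to 105 with TVB-3166, and 55.9 to 76.0 with ND-646. MCM7 fell to 20.2% of day 0 with ND-646 and 31.0% with TVB-3166. It overlaps the gene AP4M1 on the other strand and hosts microRNA genes, and since the use of strand in counting is not stated, its counts can hold reads of these neighbours.

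MCM6, like MCM4 and MCM7 part of the ring's catalytic core, was at 115, 123 and 124 CPM at day 0, 110.4, 102 and 121 CPM at day 7, 86.1, 87.7 and 98.9 CPM with alisertib, and 54.1, 62.9 and 63.8 CPM with doxorubicin. The alisertib libraries lay below all 6 untreated libraries, and the doxorubicin libraries lay below these. TVB-3166 cells had 40.2, 39.2 and 41.6 CPM, palbociclib cells 40.0, 33.6 and 37.2 CPM, bleomycin cells 33.6, 21.6 and 33.5 CPM, and ND-646 cells 25.7, 30.6 and 29.6 CPM. MCM6 was the subunit with the largest fall in bleomycin (24.6% of day 0, −2.02 ± 0.16, adjusted p-value 3.45e-05) and palbociclib cells (30.6%, −1.71 ± 0.10). ND-646 and bleomycin cells did not differ for it (adjusted p-value 0.892).

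Per length of the union of exons, MCM7 was the highest and MCM5 the lowest of the 6 subunit genes in every group. In day-0 cells MCM7 was at 64.7 CPM per kb and MCM5 at 20.4, a ratio of 3.17, and the ratio was between 3.22 in alisertib cells and 3.85 in bleomycin cells over the drug groups. MCM2 was above MCM6 in day-0 cells, at 33.2 and 29.2 CPM per kb, and below it in ND-646 cells, at 6.12 and 6.92, and in TVB-3166 cells, at 8.20 and 9.75. With the longest transcript as the length MCM7 remained the highest in all groups, but MCM6 was the lowest in day-0, bleomycin, doxorubicin, palbociclib and alisertib cells, and MCM2 stayed above MCM6 in ND-646 cells (8.41 and 7.63) and TVB-3166 cells (11.3 and 10.7), so the order below MCM7 depends on the length used.

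**Figure D3:**
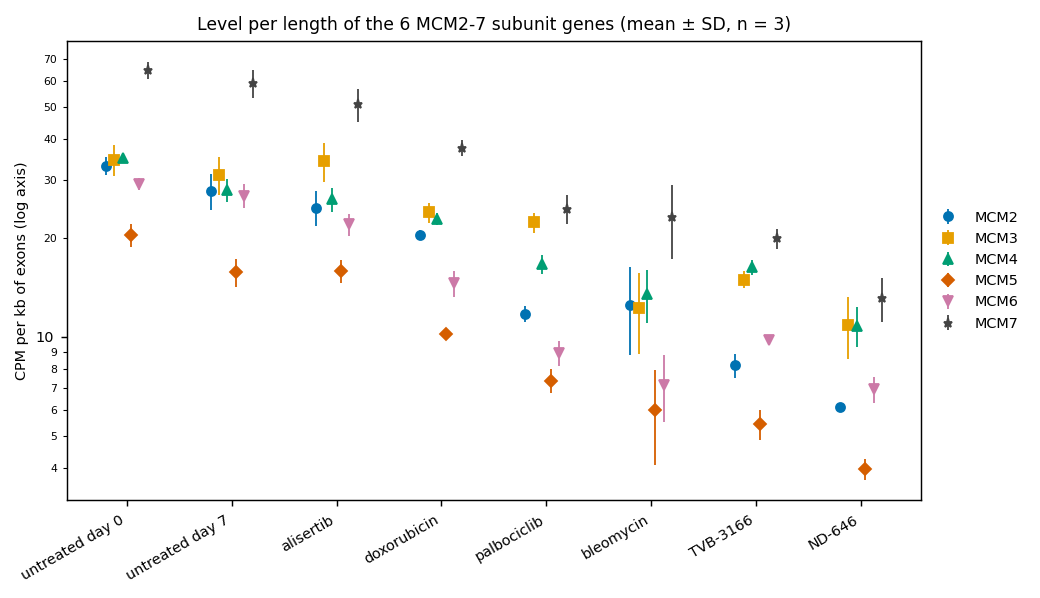
CPM per kb of exons (y axis, log scale) for the 6 subunit genes in each group (x axis), as means ± SD of 3 libraries. MCM7 is the highest in every group, from 64.7 in day-0 to 13.1 in ND-646 cells, and MCM5 the lowest, from 20.4 to 3.97.

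MCM10, which helps to open the loaded ring and bring in the polymerase, was at 57.5, 71.0 and 73.1 CPM in day-0 cells and at 58.3, 51.6 and 68.0 CPM in day-7 cells, which overlapped. Alisertib cells had 42.6, 47.4 and 52.9 CPM and doxorubicin cells 34.5, 40.5 and 40.1 CPM. Palbociclib cells had 15.9, 13.9 and 17.9 CPM, bleomycin cells 18.6, 6.99 and 18.6 CPM, TVB-3166 cells 14.5, 13.2 and 13.5 CPM, and ND-646 cells 4.76, 8.33 and 8.56 CPM. Alisertib and doxorubicin differed (adjusted p-value 0.0413), as did doxorubicin and palbociclib (8e-05), and the 4 lower groups held no neighbours that differed. MCM10 fell to 10.7% of day 0 in ND-646 cells (−3.22 ± 0.25, adjusted p-value 3.98e-05), within the SE of the fall of GINS2. Without ND-646 replicate 1 it was at −2.99 and GINS2 at −3.16.

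GINS2, a subunit of the GINS complex that activates the helicase, had the lowest log2 fold change of the 10 members in 5 of the 6 drug groups, though in TVB-3166 cells MCM10 was lower without TVB-3166 replicate 2 or day-0 replicate 1. It was at 34.8, 37.7 and 37.4 CPM at day 0 and 34.0, 24.3 and 32.3 CPM at day 7, then at 18.7, 17.1 and 18.9 CPM with alisertib and 11.4, 12.6 and 12.4 CPM with doxorubicin. The libraries of these drug groups lay below all untreated libraries and did not overlap each other. TVB-3166 cells had 8.66, 5.76 and 7.11 CPM, bleomycin cells 8.07, 3.58 and 7.43 CPM, palbociclib cells 7.50, 4.79 and 6.24 CPM, and ND-646 cells 4.55, 3.82 and 4.35 CPM. GINS2 fell to 49.6% of day 0 with alisertib (−1.01 ± 0.10, adjusted p-value 0.000115), 33.4% with doxorubicin (−1.58 ± 0.10, 8.50e-06), 16.9% with palbociclib and 11.5% with ND-646 (−3.12 ± 0.16, 1.52e-05). The neighbours day 7 and alisertib, alisertib and doxorubicin, and doxorubicin and TVB-3166 each differed (adjusted p-values 0.00395, 0.00212 and 0.00176). GINS2 overlaps a gene on the other strand that is also in the table, so the same limit on strand applies. MCM2 shares this limit, since it overlaps a long non-coding RNA gene on the other strand, which is not in the table.

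To see whether members changed by unequal amounts, the log2 level of CDC6, CDT1, MCM10 and GINS2 was set against the mean log2 level of MCM2 to MCM7 in the same library. A ratio within a library shows unequal change and does not say which side moved. Relative to the subunits, GINS2 was lower than in day-0 cells in all 6 drug groups with no overlap between libraries, by 0.67 in alisertib, 0.82 in doxorubicin and 1.28 in palbociclib cells. MCM10 was lower without overlap in 4 drug groups, with differences of −1.15 (ND-646), −0.69 (TVB-3166), −0.68 (bleomycin) and −0.78 (palbociclib), and overlapped day 0 in doxorubicin and alisertib cells. CDC6 was lower in ND-646 (−0.49), TVB-3166 (−0.37) and bleomycin cells (−0.36) and higher in doxorubicin cells (0.20). CDT1 was apart from day 0 in palbociclib cells, at −1.04. The exact permutation test, 2-sided, gave p = 0.1 for each of these, the smallest that 3 libraries against 3 allow, and over the 28 ratios compared the smallest adjusted value was 0.187, so no ratio could pass a threshold.

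**Figure D4:**
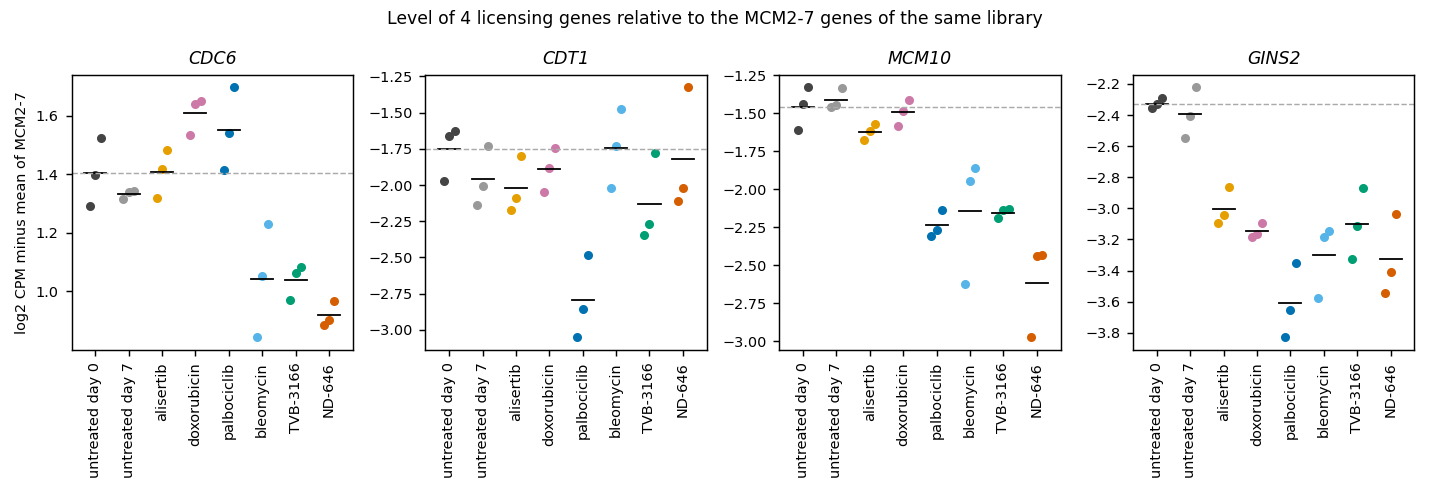
Log2 CPM of 4 members minus the mean log2 CPM of MCM2 to MCM7 in the same library (y axis), by group (x axis), with 3 libraries per group drawn from lowest to highest, a black line at the mean and a dashed line at the day-0 mean. The palbociclib libraries of CDT1 lie from −3.05 to −2.48, below the other groups.

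Both lipogenesis inhibitors were given at the same dose and time. The ND-646 means were below the TVB-3166 means for 10 of 10 members, at log2 differences of −0.22 (CDT1) to −0.93 (MCM10) with a median of −0.55, and 0 of 10 passed edgeR's adjusted threshold, with or without the replicate block. Without the block 0.520% of genes were called lower. At an unadjusted p-value under 0.05 there were 9 of 10, all but CDT1, against 7.85% of genes, and DESeq2 called 7, against 3.30% of genes. Without ND-646 replicate 1 edgeR called 8, all but MCM3 and CDT1, against 6.01% of genes, with a median of −0.45. The smallest adjusted p-value in the fit with all libraries was that of CDC6 (0.0818), whose difference was −0.63 ± 0.13 with a 95% interval of −0.99 to −0.26. Of the members, 9 had no overlap between ND-646 and TVB-3166 libraries. The share of all genes without such overlap was not counted, so this number is a description without a background.

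Some members differed between TVB-3166 and palbociclib cells. Whether the members differed by unequal amounts was not tested for this pair. MCM2, MCM3, MCM5, MCM7 and CDC6 were lower in TVB-3166 cells, 5 of 10 against 20.2% of genes called lower, with the largest differences for CDC6 (−0.80 ± 0.08, adjusted p-value 1.75e-05) and MCM3 (−0.58 ± 0.08). The MCM7 call (−0.30 ± 0.09, 0.0213) was lost without TVB-3166 replicate 2 or palbociclib replicate 1 or 3. MCM4, MCM6, MCM10, CDT1 and GINS2 did not pass, at −0.03 ± 0.08, 0.13 ± 0.09, −0.22 ± 0.12, 0.38 ± 0.20 and 0.21 ± 0.20. With the replicate block CDT1 was called higher in TVB-3166 cells (0.38, adjusted p-value 0.0102), against 24.5% of genes called higher, and likewise without palbociclib replicate 1 (0.59, 0.0429).

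Between bleomycin and palbociclib cells few members differed, in shares near those over all genes. MCM3 (−0.87 ± 0.18, adjusted p-value 0.00724) and CDC6 (−0.77 ± 0.22, 0.0267) were lower in bleomycin cells, 2 of 10 against 14.7% of genes called lower, and CDT1 was higher (0.76 ± 0.25, 0.0455), against 15.9% of genes called higher. With the replicate block MCM4 and MCM6 were also called lower, for 4 of 10 against 19.3% of genes. The CDC6 call was lost without palbociclib replicate 1, 2 or 3, and the CDT1 call without bleomycin replicate 1 or 3, without palbociclib replicate 2 or 3, with library totals in place of TMM, and without a filter on low counts. Without bleomycin replicate 2 MCM3, CDC6 and CDT1 were all still called, CDC6 at −0.51.

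The rest of the pathway was read from 56 genes in 5 lists, all of them in the table. Of the 6 subunits of the origin recognition complex, which marks origins throughout the cell cycle, 4 fell in ND-646, TVB-3166 and bleomycin cells, 2 in doxorubicin cells and 1 in palbociclib and alisertib cells, with list medians of −0.58, −0.45, −0.49, −0.06, 0.00 and −0.06. Set against the shares of all genes called lower in these comparisons, 2 of 6 with doxorubicin (24.8%) and 1 of 6 with palbociclib (27.2%) or alisertib (19.6%) were not above the background by more than a single gene. ORC1, the subunit whose level changes through the cycle, fell in all 6 drug groups, from −0.81 ± 0.11 with alisertib to −3.05 ± 0.19 with ND-646. ORC3 and ORC4 passed in none, and ORC3 was at −0.01 ± 0.16 in ND-646 cells. Among 5 genes of licensing control and MCM relatives, 3 fell in ND-646 (18.8% of genes called lower) and alisertib cells (19.6%). In the other drug groups 4 fell, against 24.8% to 27.7% of genes. GMNN, which encodes geminin, the inhibitor of CDT1, fell in all 6, most in palbociclib cells (−2.22 ± 0.11) as did CDT1, and at −1.88 ± 0.17 in ND-646 cells. MCM8 and MCM9 encode partners in a separate helicase used in repair, and MCM8 fell in all 6 drug groups (−2.02 ± 0.19 with ND-646) while MCM9 passed in none (0.01 ± 0.30). MCMBP, which binds MCM subunits, fell in all 6, between −0.36 and −0.87.

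All 12 genes of helicase assembly and origin firing fell in ND-646 and TVB-3166 cells (medians −2.34 and −1.53), 11 in bleomycin (−1.21) and palbociclib cells (−0.94), 8 in doxorubicin (−0.55) and 5 in alisertib cells (−0.21). Of all genes tested, 18.8%, 27.7%, 25.3%, 27.2%, 24.8% and 19.6% were called lower in these groups, taken in this order. The same shares stand beside the counts of the fork and turnover lists below. CDC45, which completes the active helicase, had the largest fall with ND-646 (−3.42 ± 0.19), and TOPBP1, a scaffold of origin firing and checkpoint signalling, the smallest (−0.67 ± 0.18). CDC45, GINS3, the kinase CDC7, its activator DBF4, and DONSON fell in all 6. The partners of GINS2 moved less than it did in alisertib cells, where GINS2 fell by 1.01 on the log2 scale, GINS3 was at −0.39 ± 0.10, and GINS1 and GINS4, named after their values were seen, did not pass at −0.18 ± 0.14 and −0.14 ± 0.13. In palbociclib cells GINS1, GINS3 and GINS4 were at −0.95 ± 0.16, −1.11 ± 0.12 and −0.38 ± 0.15, against −2.56 ± 0.16 for GINS2. The differences between these genes were not tested.

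Of 25 fork and polymerase genes, 24 fell in ND-646, TVB-3166, bleomycin and palbociclib cells, 23 in doxorubicin and 17 in alisertib cells, with medians of −1.61, −1.39, −1.19, −1.02, −0.71 and −0.48. In 17 of them, among them PCNA, the sliding clamp, and PRIM1, the primase subunit, the fall was called in all 6 drug groups. The share of all genes called lower in all 6 was not counted, for this list or the others. CLSPN, the checkpoint adaptor claspin, fell most with ND-646 (−3.21 ± 0.35), and the clamp loader subunit RFC1 did not pass there (0.02 ± 0.16). RFC1 was the single gene of the list called higher, in bleomycin cells (0.43 ± 0.12, adjusted p-value 0.012), where 24.1% of all genes were. Of 8 genes that act in turnover of CDT1 and CDC6 proteins, 7 fell in ND-646 and TVB-3166 cells, 6 in bleomycin, 5 in doxorubicin and alisertib, and 4 in palbociclib cells. DTL, the ubiquitin ligase adaptor for CDT1, fell most with ND-646 (−2.91 ± 0.24), CCNF, FBXO5 and FZR1 fell in all 6 drug groups, and CUL4A passed in none. In untreated day-7 cells the medians of the 5 lists lay between −0.03 and −0.19.

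**Figure D5:**
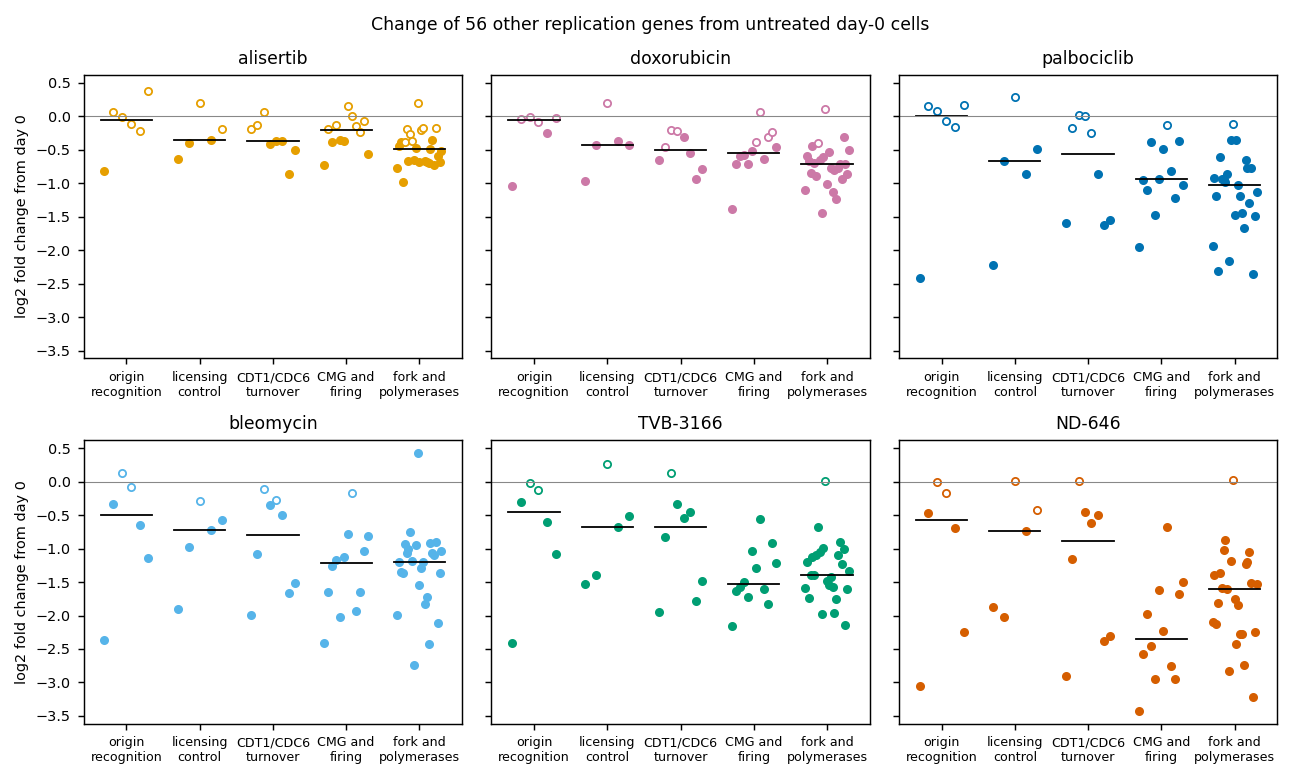
Log2 fold change from untreated day-0 cells (y axis) of the 56 other replication genes in their 5 lists (x axis), a panel per drug, with filled points for an adjusted p-value under 0.05, open points for the rest and a black line at the list median. In the ND-646 panel the median of the helicase assembly and firing list is −2.34 and that of the origin recognition complex −0.58.

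Among the 10 genes outside the members and lists whose group means were most like the mean of the members, over the 8 groups, were PKMYT1, CHEK1, BIRC5, RNGTT, CDK2, DUSP7, CEP55 and SHCBP1, with Pearson's r of 0.993 to 0.997 on log2 CPM. Over the 24 libraries r was 0.859 for DUSP7 and 0.959 to 0.987 for the other genes named. All were picked for likeness of group means out of 14046 genes. The groups are shared, so the values describe the pattern only. BIRC5, which encodes survivin, had a mean of 126 CPM in day-0 cells and 15.7 CPM in ND-646 cells, and CHEK1, a checkpoint kinase, 59.0 and 10.5 CPM. Among the members, each of which is part of that mean, r ran from 0.937 (CDT1) to 0.995 (MCM10 and MCM5), and over the 24 libraries the 45 pairs of members had a median r of 0.954, lowest for MCM3 and CDT1 (0.732).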

How the data were processed

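RNA from 24 SKBR3 libraries was sequenced, and the authors deposited raw read counts per gene, made from reads that were mapped to GRCh37 with HISAT2 and assembled into transcripts with StringTie. Their own pairwise tests used DESeq2, and the submitters' processing notes also name bcl2fastq. The use of strand in counting is not given in the sources used here, and the sources differ on the kit (stranded mRNA or stranded total RNA). Libraries were grouped by their labels. Each pair of groups was fitted with edgeR 4.0.16 in R 4.3.3 (filterByExpr, TMM, quasi-likelihood F test, adjusted p over all genes tested), and DESeq2 1.42.0 was an alternative. Log2 levels used a prior count of 2, and ratios were tested by exact permutation. Each SE is the absolute log2 fold change divided by the square root of the F statistic. The 95% intervals use this SE and a t distribution with degrees of freedom from the number of libraries alone. They are therefore approximate and can disagree with the p-values of the test. The code was tested on simulated data. Every gene in the table had at least 1 count in each library. Named genes were the members, the genes of the 5 lists called lower in all drug groups or in none, the extremes of a list with ND-646, and the 10 genes most like the members, of which some are not reported here. The members, lists and tests were chosen with earlier results of these data known. Alternatives were scaling, filters, a single fit of all libraries, DESeq2, a fold threshold of 2, a block on replicate number, and fits that each omitted 1 library.

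The correlation of deviations from the group mean between same-numbered libraries was over 0.1 for all 3 numbers in ND-646 against TVB-3166 (0.251 to 0.411), TVB-3166 against palbociclib (0.125 to 0.304), bleomycin against palbociclib (0.200 to 0.309), and bleomycin (0.127 to 0.166), doxorubicin (0.102 to 0.210) and alisertib (0.114 to 0.229) against day 7. The numbers were taken to pair libraries there, from the data alone, since the labels tie a number to no shared day or batch.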

Additional observations from a re-analysis of the deposited data

How the results depend on the processing

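Of 2080 recomputed log2 fold changes of the members over 16 comparisons, 1973 kept their direction and their side of the threshold, 37 gained and 51 lost a call, and 19 turned direction. The cause of these changes was not tested. The counts of 10 of 10 members lower in ND-646, TVB-3166, bleomycin and palbociclib cells against either untreated group, and in doxorubicin cells against day 0, stayed at 10 on leaving out any 1 library.

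Counts of members called lower moved as follows, and calls over all genes moved with the setting too. In day 7 against day 0, 27 of 13636 genes were called lower in the main fit. DESeq2 called 573 of them lower and the replicate block 550. A change in the counts below is therefore not by itself a result about the members. Day 7 against day 0 gave 2 with DESeq2 and 1 with the replicate block, where the libraries share only a number. Alisertib against day 0 gave 2 with library totals, 5 in a single fit of all 24 libraries and 6 to 9 on leaving out a library. Alisertib against day 7 gave 1 with library totals, 1 in the single fit, 4 with the block and 1 to 3 on leaving out a library. Doxorubicin against day 7 gave 6 in the single fit and 6 to 10 on leaving out a library. ND-646 against TVB-3166 gave 7 with DESeq2, 6 in the single fit and 0 to 8 on leaving out a library. Bleomycin against palbociclib gave 3 with library totals, 4 with the block and 1 to 2 on leaving out a library. Members called higher there were 0 with library totals, 0 without a filter and 0 to 1 on leaving out a library, and in TVB-3166 against palbociclib 1 with the block and 0 to 1 on leaving out a library. With a fold change of at least 2 required, by adjusted or by raw p, the count was 9 for TVB-3166 and 7 for palbociclib against day 7, 9 for palbociclib against day 0, 1 for doxorubicin against either untreated group, 1 for alisertib against day 0, and 0 for alisertib against day 7 and in both comparisons with palbociclib.

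Directions turned only for differences that had not passed the test. With library totals MCM3 in alisertib against day 0 was at 0.11, and in bleomycin against palbociclib MCM2 was at −0.0524 and GINS2 at −0.10 (−0.0040 with the replicate block). On leaving out a library, MCM3 in alisertib against day 0 ranged from −0.10 to 0.087, and in alisertib against day 7 MCM5 ranged from −0.058 to 0.067 and CDC6 from −0.091 to 0.052. CDT1 in ND-646 against TVB-3166 ranged from −0.385 to 0.017, and MCM4 in TVB-3166 against palbociclib from −0.085 to 0.00689. In bleomycin against palbociclib MCM2 ranged from −0.12 to 0.303, MCM7 from −0.220 to 0.11, MCM10 from −0.319 to 0.22, and GINS2 from −0.16 to 0.324.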

Other observations

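CDC6 lies on chromosome 17 beyond ERBB2, the HER2 gene, which is known to be amplified in SKBR3 cells. In GRCh37 coordinates its start is 557452 bp from the end of ERBB2. By level per kb of exons in day-0 cells, ERBB2 stood at percentile 99.8 of 13328 genes and CDC6 at 97.0, the highest of the 10 licensing genes, ahead of MCM7 at 95.4. By the longest transcript the day-0 levels of CDC6 and MCM7 were close, at 107 and 104 CPM per kb. Other genes ranked in the region from ERBB2 to TOP2A ran from 11.3 (IKZF3) to 98.5 (PSMD3). Most of them stood above RARA at 86.3, among them TOP2A at 97.8. Levels there were mostly high but not uniformly so. Copy number was not measured, and its part in the level of CDC6 was not tested.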
